A study of Mus musculus with 12 samples.

Results

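The IL-1 and IL-18 receptor family was examined in donor T cells that had infiltrated the liver after hematopoietic cell transplantation (HCT). The 6 genes, Il1r1, Il1r2, Il1rl1, Il1rap, Il18r1 and Il18rap, were taken by gene name from a table of 25078 genes, and all 6 passed the filter on low counts. They were chosen by earlier results of these same libraries, namely their differences between donor genotypes, so that those differences are given here as a description without a test. Differences between CD8+ and CD4+ T cells and the values of other genes of the pathway were not used by that rule and were tested. The subset tests of members nevertheless use the libraries whose values chose the members, so their p-values are not independent of that choice. The lists of the other genes were also drawn up with earlier results of these libraries known. All donors were C57BL/6 mice, and the T cells went with T cell-depleted WT bone marrow into lethally irradiated WT BALB/c recipients, whose ages are not given in the sources used here. Donors were WT, STAT3ko (Stat3 flanked by loxP sites and removed by a Cre under the Cd4 promoter, which acts in the precursors of CD4+ and CD8+ T cells), or STAT3ko PD-1ko (the same, on a germline PD-1 deletion). Cells positive for H-2Kb (the donor MHC molecule) and TCRb were sorted as CD4+ or CD8+ T cells on day 6 after HCT. This gave 12 RNA-Seq libraries, 2 for each of the 3 genotypes in each of the 2 subsets, and each library held the cells of 3 recipients, so that a replicate is a pool of mice.

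The receptors of this family share an extracellular part built from immunoglobulin domains, and those that signal carry a cytoplasmic TIR domain. A ligand-binding chain and an accessory chain come together around the cytokine, recruit MYD88 and the IRAK kinases, and activate TRAF6, NF-kB and MAP kinases. IL-1 helps T cells to adopt the type 17 program, IL-33 acts on type 2 and regulatory T cells, and IL-18 together with IL-12 drives IFN-γ production by type 1 and cytotoxic T cells. STAT3 transmits signals of IL-6, IL-21 and IL-23 in T cells, and PD-1 is an inhibitory receptor.

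The libraries held 21676125 to 24551477 counts on genes. Levels are given as CPM (gene counts relative to library size, scaled by edgeR's TMM method), and levels of different members are compared only as RPKM, which also divides by exon length. Sums and orders of marker genes are in CPM and do not allow for exon length. Stat3 was at 369 and 467 CPM in WT, 140 and 164 in STAT3ko, and 157 and 219 in STAT3ko PD-1ko CD4+ libraries. In CD8+ libraries it was 397 and 384, 149 and 136, and 154 and 235 CPM in the same order. The libraries of the deficient donors thus lay below all WT libraries, although in edgeR's quasi-likelihood test the adjusted p for STAT3ko against WT was 0.055 in CD4+ (0.00197 with the replicate number as a block) and 0.108 in CD8+ T cells. Reads from Stat3 exons that are not deleted, or from cells that kept the gene, cannot be told apart in gene counts. Pdcd1, which encodes PD-1, was at 247 and 235 CPM in WT, 261 and 323 in STAT3ko, and 55.1 and 26.0 in STAT3ko PD-1ko CD4+ libraries. In CD8+ libraries it was at 376 and 307, 424 and 454, and 93.6 and 65.5 CPM, and it fell in STAT3ko PD-1ko against WT in each subset (edgeR adjusted p = 0.00566 and 0.00243).

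The T cell markers were present in all 12 libraries, with Thy1 as the most abundant and none of the 6 measured genes of the list at 0. They summed to 5193 and 4888 CPM in WT, 4793 and 4670 in STAT3ko, and 4422 and 4299 in STAT3ko PD-1ko CD4+ libraries, and to 5415 and 5392, 4927 and 5191, and 4065 and 4124 CPM in CD8+ libraries. Cd4 was at 1241 CPM or more in the libraries sorted as CD4+ and at most 2.73 in the others, and Cd8a was at 589 CPM or more in those sorted as CD8+ and at most 5.64 in the others. Against WT, the coreceptors of the sorted subset were lower in STAT3ko PD-1ko T cells. Cd4 fell in CD4+ T cells from a mean of 1862 to 1282 CPM, and in CD8+ T cells Cd8a fell from 1265 to 592 CPM and Cd8b1 from 1044 to 569 CPM (edgeR adjusted p = 0.0375, 0.00414 and 0.00531). In that comparison 1 of the 6 T cell markers fell in the CD4+ and 3 in the CD8+ subset, with medians of -0.24 and -0.43 on the log2 scale. Markers of hepatocytes summed to at most 5.22, of macrophages to 39.7, of neutrophils to 1.31, of mast cells and basophils to 11.5, of B cells to 14.7 and of endothelial and stellate cells to 199 CPM, of which Pecam1 held 110 to 198 CPM and each of the other 9 genes at most 1.10. In STAT3ko PD-1ko against WT, the macrophage markers tested had median log2 fold changes of -2.18 in CD4+ and -2.45 in CD8+ T cells. Of 8, 0 were called in CD4+ and 1 was lower in CD8+ T cells. Those of mast cells and basophils had medians of -0.64 and 1.07, with 1 of 2 higher in CD8+ T cells. The 1 B cell gene tested fell in CD8+ T cells, by 1.18. These calls stood beside 12.9% and 17.2% of all genes. NK cell and innate lymphoid markers, of which Id2 had the highest median over the 12 libraries (569 CPM), summed to 1678 and 1988 CPM in WT, 1405 and 1567 in STAT3ko, and 916 and 846 in STAT3ko PD-1ko CD4+ libraries. In CD8+ libraries their sums were 917 and 1382, 735 and 1002, and 651 and 556 CPM. Of the 8 genes of that list, Klra8 was at 0 in all 12 libraries and Ncr1 did not exceed 0.424 CPM, while Id2, Il7r and Eomes are also expressed by T cells. Regulatory T cell markers differed by replicate number, with sums of 2221 and 1234 CPM in the 2 WT CD4+ pools, 2458 and 1136 in STAT3ko, and 1540 and 1127 in STAT3ko PD-1ko. In CD8+ libraries these sums were 1809 and 904, 1771 and 976, and 1446 and 1155 CPM. Ctla4 was the most abundant of the 10 genes of that list and none was at 0. Of these 10, 3 fell in STAT3ko PD-1ko against WT in CD4+ T cells, namely Foxp3, the defining transcription factor of regulatory T cells, Itgae and Ikzf2, with log2 fold changes of -2.905 ± 0.31, -2.55 ± 0.27 and -1.11 ± 0.22 (edgeR adjusted p = 0.00395, 0.00389 and 0.0185), where 12.9% of all genes were called and 5.65% were lower. Foxp3 was at 25.8 ± 6.88 CPM (SD, n = 2) in WT, 20.7 ± 6.20 in STAT3ko and 3.39 ± 0.0277 in STAT3ko PD-1ko CD4+ libraries. Foxp3 and Itgae also fell in CD8+ T cells, with log2 fold changes of -1.19 ± 0.32 and -2.87 ± 0.34 (edgeR adjusted p = 0.0458 and 0.00493). These genes were named after their values were seen. The part of other cells in the levels below was not tested. In sorted pools, fewer cells that express a gene and less RNA per cell cannot be told apart.

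Per length, the 2 chains of the IL-18 receptor were far more abundant than the rest of the family. The mean RPKM over the 12 libraries was 176 for Il18r1, 152 for Il18rap, 28.5 for Il1rl1, 10.3 for Il1r2, 2.87 for Il1rap and 1.33 for Il1r1. Below the IL-18 receptor chains this order did not hold in each group. In WT CD4+ libraries the mean of Il1r1 was 6.47 and that of Il1rap 3.04. The mean of Il1r2 was 1.97 in STAT3ko CD4+ and 25.3 in STAT3ko PD-1ko CD4+ libraries, where that of Il1rl1 was 25.1. Il1r1 and Il1r2 differed most between genotypes, as the plot of levels by library shows.

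**Figure D1:**
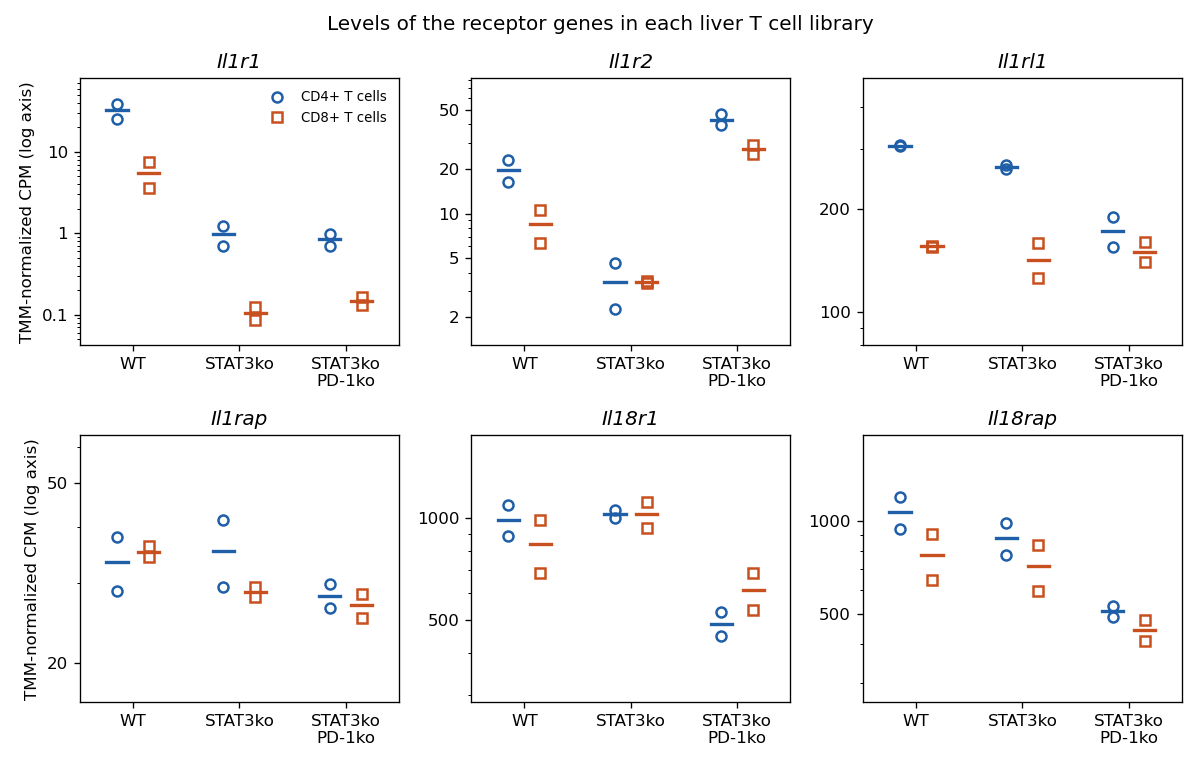
Level of each receptor gene in each library, in TMM-normalized CPM on a log axis, by donor genotype. Circles are CD4+ and squares CD8+ libraries (2 per group), and bars are group means; Il1r1 was near 0 in all libraries of deficient donors, and in each subset Il1r2 was lowest in STAT3ko and highest in STAT3ko PD-1ko libraries.

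Il1r1 encodes the chain that binds IL-1α and IL-1β and signals. It was at 25.3 and 39.2 CPM (557 and 927 counts) in the WT CD4+ libraries. It was at 0.706 and 1.24 CPM (15 and 28 counts) in STAT3ko and 0.692 and 0.993 CPM (16 and 25 counts) in STAT3ko PD-1ko CD4+ libraries. The WT libraries lay above all others, and those of the 2 deficient genotypes overlapped. In CD8+ T cells the WT libraries had 3.56 and 7.51 CPM (80 and 188 counts), the STAT3ko libraries 2 and 3 counts, and the STAT3ko PD-1ko libraries 3 and 4 counts. The log2 fold change from WT was -5.03 ± 0.39 (SE, n = 2 against 2) in STAT3ko and -5.23 ± 0.39 in STAT3ko PD-1ko CD4+ T cells, a level 33.1-fold and 38.3-fold lower. In CD8+ T cells so few counts were left that the ratio is given with its exact 95% counting interval, which covers counting error only. The summed, scaled WT counts were 53.7 times those of STAT3ko (22.7 to 167) and 38.0 times those of STAT3ko PD-1ko (18.2 to 95.3). No fold is given between the 2 deficient genotypes in CD8+ T cells.

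Il1r2 encodes the decoy receptor, which binds IL-1 but lacks the TIR domain and does not signal. It was at 16.2 and 22.98 CPM in WT, 4.66 and 2.27 in STAT3ko, and 39.4 and 46.7 in STAT3ko PD-1ko CD4+ libraries. The CD8+ libraries held 6.31 and 10.6, 3.54 and 3.39, and 25.2 and 29.1 CPM. In each subset the 3 genotypes did not overlap, with STAT3ko lowest and STAT3ko PD-1ko highest. The log2 fold change from WT in STAT3ko was -2.50 ± 0.35 for CD4+ T cells and -1.29 ± 0.28 for CD8+ T cells. In STAT3ko PD-1ko it was 1.15 ± 0.31 and 1.69 ± 0.26. Between the deficient genotypes it was 3.66 ± 0.36 for CD4+ T cells and 2.98 ± 0.28 for CD8+ T cells, a level 12.4-fold and 7.84-fold higher in STAT3ko PD-1ko. Il1r1 and Il1r2 thus differed from WT in the same direction in STAT3ko and in opposite directions in STAT3ko PD-1ko libraries. The RPKM of Il1r2 divided by that of Il1r1 was 1.84 and 1.68 in WT, 18.97 and 5.24 in STAT3ko, and 164 and 135 in STAT3ko PD-1ko CD4+ libraries. In CD8+ libraries the same ratio was 5.10 and 4.07 in WT, and the deficient genotypes, with 2 to 4 counts of Il1r1, give no firm ratio. The log2 fold change of Il1r2 itself from WT in STAT3ko CD4+ T cells was -3.10 without STAT3ko CD4+ replicate 1 and -2.08 without replicate 2.

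The stretches before the starts of these 2 genes are shown because they are the members with the largest differences between Stat3-sufficient and Stat3-deficient libraries, and that before Il18rap as an example of a match to the longer of the 2 motifs searched. Il18r1 also had matches, but its windows overlap the end of Il1rl1 or lie within Il18r1 itself and are not shown. STAT proteins are known to bind palindromes of the type TTCNNNGAA, and this motif and its longer form TTCNNNNGAA were searched in all 32851 RefSeq promoters of mouse build GRCm38.p6 (250 bases before to 50 after each start). Each motif reads the same on both strands. The first was in 8.30% of all windows and in 2 of the 10 windows of the members, the second in 6.95% and in 3 of 10, and the windows of a gene can overlap. Capitals mark the matches.
Il1r1, chr1:40224830-40225079, plus strand: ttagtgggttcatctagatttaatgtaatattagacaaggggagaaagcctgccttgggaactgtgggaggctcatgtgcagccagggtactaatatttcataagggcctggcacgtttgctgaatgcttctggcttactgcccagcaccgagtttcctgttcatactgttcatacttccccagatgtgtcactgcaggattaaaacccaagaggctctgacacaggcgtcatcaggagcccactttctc
Il1r2, chr1:40085843-40085990, plus strand: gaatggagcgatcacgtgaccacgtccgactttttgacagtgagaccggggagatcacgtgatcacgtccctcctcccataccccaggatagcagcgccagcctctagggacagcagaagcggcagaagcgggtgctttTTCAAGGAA
Il18rap, chr1:40515112-40515361, plus strand: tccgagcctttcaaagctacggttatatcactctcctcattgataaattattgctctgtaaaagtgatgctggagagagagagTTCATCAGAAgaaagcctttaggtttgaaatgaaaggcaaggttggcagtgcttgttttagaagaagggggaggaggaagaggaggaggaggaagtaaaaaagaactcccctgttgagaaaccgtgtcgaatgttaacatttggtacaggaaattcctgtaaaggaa
The match TTCAAGGAA of Il1r2 begins 111 bases before the RefSeq start and reaches 6 bases into an exon of a GENCODE transcript, where the stretch ends. It lies within the gene as the count table places it (from 40084714). The match TTCATCAGAA of Il18rap begins 167 bases before its start. In the Il1r1 stretch these letters were not found. Il18r1 had 2 matches to the shorter motif in the window of its most downstream start, and its other 2 windows, which overlap, shared 1 match to the longer motif. A match is a description of letters and no measurement of binding.

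Il1rap encodes the accessory chain that IL-1R1 and ST2 need to signal. In CD4+ libraries it was at 38.0 and 28.9 CPM in WT, 41.5 and 29.4 in STAT3ko, and 29.9 and 26.4 in STAT3ko PD-1ko. The CD8+ values were 34.3 and 36.2, 27.9 and 29.5, and 28.4 and 25.2 CPM. All genotypes overlapped in CD4+ T cells, where the pool numbered 1 was higher than that numbered 2 in each genotype, as were the regulatory T cell markers. In CD8+ T cells the WT libraries lay above those of both deficient genotypes, with log2 fold changes from WT of -0.30 ± 0.13 in STAT3ko and -0.39 ± 0.13 in STAT3ko PD-1ko.

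Il1rl1 encodes ST2, the chain that binds IL-33. The gene also gives rise to a soluble form that captures IL-33, and gene-level counts do not separate the forms. In CD4+ libraries it was at 309 and 306 CPM in WT, 270 and 262 in STAT3ko, and 190 and 155 in STAT3ko PD-1ko. In CD8+ libraries it was at 157 and 156, 125 and 159, and 160 and 140 CPM. In CD4+ T cells the 3 genotypes did not overlap, in the descending order WT, STAT3ko, STAT3ko PD-1ko, whereas in CD8+ T cells all overlapped. The log2 fold change between STAT3ko PD-1ko and WT was -0.81 ± 0.15 for CD4+ T cells and -0.05 ± 0.15 for CD8+ T cells. In the fit of all 12 libraries the CD8+ value minus the CD4+ value was 0.78 ± 0.21. In STAT3ko it was -0.20 ± 0.15 and -0.14 ± 0.15. The regulatory T cell markers Foxp3, Ikzf2 and Itgae were also lowest in the STAT3ko PD-1ko CD4+ libraries, with means of 3.39, 35.9 and 1.18 CPM against 25.8, 78.7 and 7.04 in WT and 20.7, 117 and 4.16 in STAT3ko, and their part in the level of Il1rl1 was not tested. The means of Ctla4, Nrp1, Tnfrsf18 and Il10 were also lowest there, at 596, 200, 90.5 and 68.2 CPM. In WT CD4+ libraries they were 897, 230, 117 and 69.4 CPM, and in STAT3ko 940, 297, 107 and 91.6 CPM. None of them was among the genes called against WT, and the mean of Il10 was close to that of WT. The libraries of Ctla4 overlapped, at 667 and 526 CPM in STAT3ko PD-1ko, 1301 and 494 in WT, and 1517 and 363 in STAT3ko, by replicate number. Il2ra, Klrg1 and Ikzf4 of that list had another order in CD4+ T cells. Il2ra was highest in STAT3ko PD-1ko, at a mean of 313 CPM against 280.6 in WT and 178.3 in STAT3ko, and it rose against STAT3ko (edgeR adjusted p = 0.0263). Klrg1 was at 20.6 CPM against 16.0 in WT and 38.1 in STAT3ko, and Ikzf4 at 3.81 CPM against 6.17 and 2.30.

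Il18r1 encodes the chain that binds IL-18, and Il18rap its accessory chain. Il18r1 was at 883 and 1092 CPM in WT, 998 and 1056 in STAT3ko, and 527 and 449 in STAT3ko PD-1ko CD4+ libraries. Among CD8+ libraries it was at 686 and 988, 935 and 1118, and 687 and 535 CPM. The STAT3ko PD-1ko libraries lay below all others in CD4+ T cells, while in CD8+ T cells they lay below STAT3ko and overlapped WT. The log2 fold change from WT in STAT3ko PD-1ko was -0.998 ± 0.16 for CD4+ T cells and -0.45 ± 0.20 for CD8+ T cells, against 0.06 ± 0.16 and 0.29 ± 0.20 in STAT3ko.

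Il18rap was at 942 and 1196 CPM in WT, 777 and 984 in STAT3ko, and 529 and 491 in STAT3ko PD-1ko CD4+ libraries. In CD8+ libraries it was at 643 and 910, 592 and 838, and 480 and 411 CPM. In each subset the STAT3ko PD-1ko libraries lay below all others, and WT and STAT3ko overlapped. Its log2 fold change from WT in STAT3ko PD-1ko was -1.05 ± 0.18 for CD4+ T cells and -0.79 ± 0.22 for CD8+ T cells, against -0.28 ± 0.18 and -0.12 ± 0.22 in STAT3ko. The summed NK and innate lymphoid markers were also lowest in the STAT3ko PD-1ko libraries of each subset, and their part in the levels of Il18r1 and Il18rap was not tested. Most of that sum was Id2 and Il7r, with means of 417 and 420 CPM in STAT3ko PD-1ko against 1001 and 806 in WT CD4+ libraries. Against WT, 1 of the 6 genes of that list tested rose (Eomes, from 3.17 to 8.22 CPM) and 2 fell in CD4+ T cells. The median log2 fold change of the 6 was 0.03 in CD4+ T cells and -0.94 in CD8+ T cells, where 3 fell. These counts stood beside 12.9% and 17.2% of all genes called. The coreceptors and part of the T cell markers were also lower in STAT3ko PD-1ko than in WT libraries, as given above, and their part in these levels was not tested either. The RPKM of Il18r1 divided by that of Il18rap was 0.934 to 1.31 in CD4+ and 1.09 to 1.61 in CD8+ libraries.

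The order of the group means differed between genes. For Il1r1 it was WT CD4+, WT CD8+, STAT3ko CD4+, STAT3ko PD-1ko CD4+, STAT3ko PD-1ko CD8+ and STAT3ko CD8+, and of the neighbours only the third and the fourth overlapped, the last 2 groups resting on 2 to 4 counts. For Il1r2 it was STAT3ko PD-1ko CD4+, STAT3ko PD-1ko CD8+, WT CD4+, WT CD8+ and then the STAT3ko groups, whose libraries overlapped. For Il1rl1 the WT and STAT3ko CD4+ groups led without overlap, and the other 4 groups overlapped with their neighbours. All neighbours overlapped for Il1rap. For Il18r1 the STAT3ko PD-1ko CD4+ group lay below a run of overlapping neighbours that held the other 5 groups. For Il18rap the WT and STAT3ko groups of both subsets formed such a run, above the STAT3ko PD-1ko CD4+ and then the STAT3ko PD-1ko CD8+ group.

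**Figure D2:**
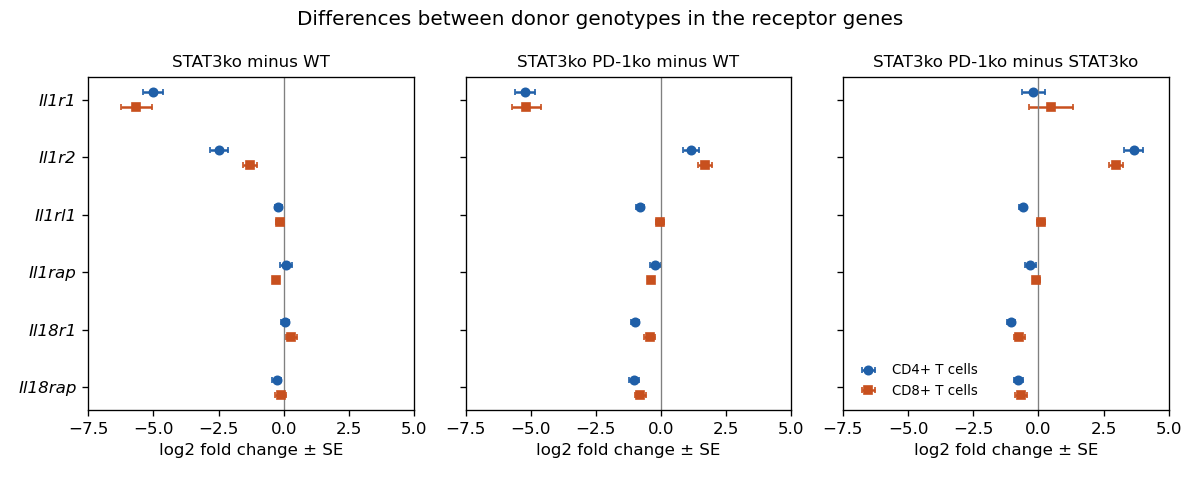
Log2 fold change of each receptor gene between donor genotypes with its standard error, in CD4+ (circles) and CD8+ (squares) T cells. Il1r1 lay far below 0 in both comparisons with WT, and Il1r2 lay below 0 in STAT3ko and above 0 in STAT3ko PD-1ko.

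Since these differences chose the members, the counts of members past the threshold used for all genes (adjusted p under 0.05, edgeR) are read against no expectation. In STAT3ko against WT, 2 members were past it in CD4+ and 1 in CD8+ T cells, all lower, where 0.334% of all genes were called in CD4+ (0.151% higher and 0.184% lower) and 0.0583% in CD8+ T cells (0.0167% higher and 0.0417% lower). In STAT3ko PD-1ko against WT, 4 members were past it in CD4+, all lower, and 3 in CD8+ T cells, 1 higher and 2 lower. With the replicate number as a block, Il1r2 was also past it in CD4+ T cells, in the other direction, which made 5. The shares of all genes were 12.9% (7.21% higher and 5.65% lower) and 17.2% (9.01% higher and 8.21% lower). In STAT3ko PD-1ko against STAT3ko, 4 members were past it in CD4+, 1 higher and 3 lower, and 2 in CD8+ T cells, 1 higher and 1 lower. The shares of all genes were 11.1% (6.05% higher and 5.03% lower) and 16.8% (8.76% higher and 8.05% lower). Over the 6 members, the log2 fold change from WT had a median of -0.24 in STAT3ko and -0.91 in STAT3ko PD-1ko CD4+ T cells, and -0.22 and -0.42 in CD8+ T cells, while that of all genes tested was between -0.01 and 0.01. The 3 comparisons of a subset share libraries. In STAT3ko PD-1ko against WT, 1 member was past the threshold without either STAT3ko PD-1ko CD4+ library and 0 were without STAT3ko PD-1ko CD8+ replicate 2. Against STAT3ko, 0 were past it without replicate 2 of STAT3ko PD-1ko in either subset, and in STAT3ko against WT in CD8+ T cells 0 were unless WT CD8+ replicate 1 was the library left out.

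Of the 6 genes, 5 lie in a cluster on chromosome 1 of build mm10, all on the plus strand, and Il1rap lies on chromosome 16 (26581705 to 26730128). Il1r2 extends from 40084714 to 40125230, Il1r1 from 40225080 to 40316177, Il1rl1 from 40429570 to 40465414, Il18r1 from 40465552 to 40500854 and Il18rap from 40515362 to 40551705. Il1rl2, which encodes the IL-36 receptor, lies between Il1r1 and Il1rl1. Only 137 bases separate Il1rl1 from Il18r1. Il1rl2 was at 52.4 and 49.8 CPM in WT, 34.0 and 35.7 in STAT3ko, and 37.1 and 37.8 in STAT3ko PD-1ko CD4+ libraries, and at 17.7 to 23.95 CPM in all CD8+ libraries. Map4k4, on the other side of Il1r2, fell in STAT3ko PD-1ko against WT by 0.62 ± 0.16 in CD4+ and 0.61 ± 0.12 in CD8+ T cells on the log2 scale (edgeR adjusted p = 0.0429 and 0.0176). The log2 fold changes of Il1rl2 from WT were between -0.55 and 0.12, and none passed the test (edgeR adjusted p = 0.0958 or higher), as the plot along the cluster shows beside the larger differences of Il1r1 and Il1r2. The antisense gene Gm16894 overlaps the start of Il1r2 and had at most 11 counts in a library. Since the use of strand in counting is not given, reads of both genes cannot be told apart. Beyond Il18rap, Slc9a4 was too low to test, Slc9a2 had at most 21 and Mfsd9 at most 67 counts, and 1700066B17Rik on the other side had at most 1.

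**Figure D3:**
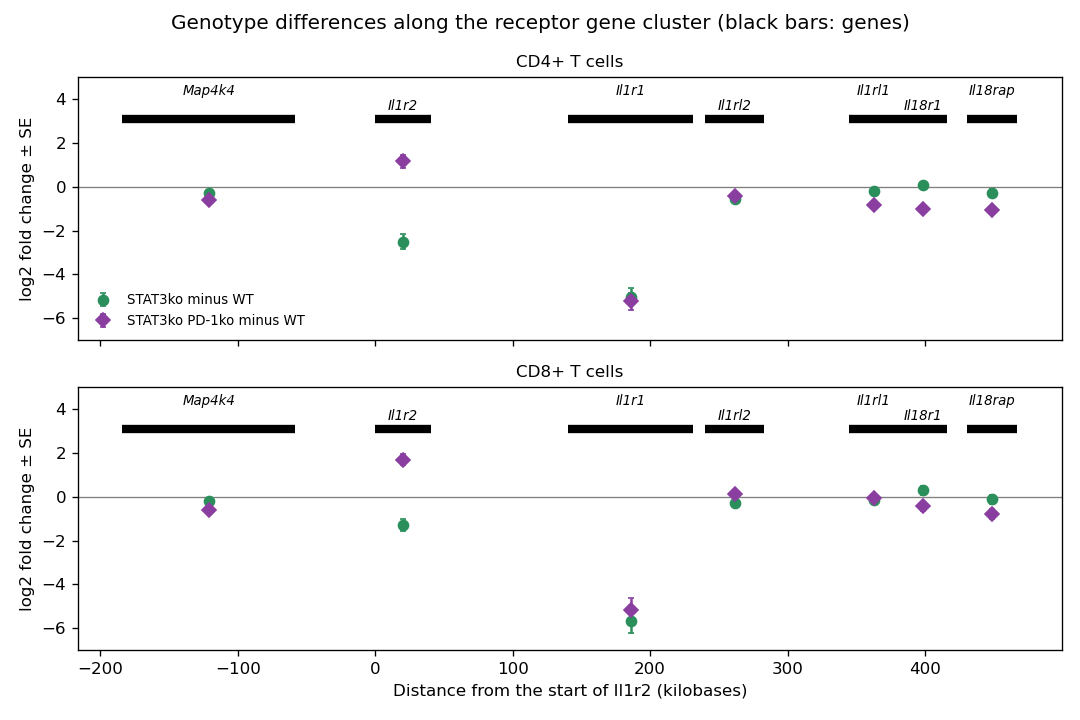
Log2 fold change from WT with its standard error for the genes of the receptor cluster, placed by distance in kilobases from the start of Il1r2, with CD4+ T cells in the upper and CD8+ T cells in the lower panel. Black bars are the genes. Il1r1 lies far below 0 and Il1r2 between -2.50 and 1.69, and the values of Il1rl2, Il1rl1, Il18r1, Il18rap and Map4k4 lie between -1.05 and 0.29. In STAT3ko PD-1ko CD4+ T cells Il18rap (-1.05) and Il18r1 (-0.998) differ from WT by a size like that of Il1r2 (1.15).

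The subsets were then compared within each genotype, in an edgeR fit of all 12 libraries. These are the libraries whose genotype differences chose the members, so the p-values of members below are not independent of that choice. In WT, 3 members were lower in CD8+ than in CD4+ T cells and none was higher, where 10.5% of all genes were called (4.91% higher and 5.59% lower). Il1r1 was lower by 2.54 ± 0.37 on the log2 scale, or 5.84-fold (n = 2 against 2, edgeR adjusted p = 0.00187). Il1rl1 was 1.97-fold lower, with a log2 fold change of -0.98 ± 0.15 (edgeR adjusted p = 0.00226). Il1r2 was 2.32-fold lower, with a log2 fold change of -1.21 ± 0.32 (edgeR adjusted p = 0.0383), a call that held in 1 of 4 fits that left out a WT library (without WT CD8+ replicate 2; edgeR adjusted p = 0.039 to 0.245). All these CD8+ libraries lay below the CD4+ libraries.

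In STAT3ko, Il1rl1 was again lower in CD8+ T cells (log2 fold change -0.90 ± 0.15, edgeR adjusted p = 0.00409), and so was Il1r1 (-3.16 ± 0.67, edgeR adjusted p = 0.0153, on 2 and 3 counts in CD8+ libraries, past the threshold in 1 of 4 fits that left out a library, that without STAT3ko CD4+ replicate 1). Here 9.62% of all genes were called, 4.81% higher and 4.82% lower. Il1r2 had a log2 fold change of 0.01 ± 0.35 and CD4+ and CD8+ libraries that overlapped. In STAT3ko PD-1ko no member passed, where 4.14% of all genes were called (1.65% higher and 2.5% lower). Of the 6, 1 had an unadjusted p under 0.05, DESeq2 called 1, and 1 passed when all genes of at least 1 count were kept. Il1r1 was lower in each CD8+ library there (log2 fold change -2.47 ± 0.64, edgeR adjusted p = 0.0618), and Il1rl1 differed by -0.20 ± 0.15.

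The study describes both subsets as taken from the livers of the same recipients, without tying a replicate number to them. Within each genotype the deviations of same-numbered CD4+ and CD8+ libraries from the group means ran together (Pearson's r across genes 0.583 to 0.646). With genotype and replicate number as a block, the accessory chain Il18rap was also lower in CD8+ T cells, in WT by 0.47 ± 0.09 (edgeR adjusted p = 0.00475) and in STAT3ko by 0.31 ± 0.09 (edgeR adjusted p = 0.0294) on the log2 scale. The block also brought Il1r1 (edgeR adjusted p = 0.00688) and Il1r2 (edgeR adjusted p = 0.0219) past the threshold in STAT3ko PD-1ko. Il18r1 and Il1rap passed in no genotype, with or without the block. Whether the difference between subsets itself differed between genotypes was not tested for the members.

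**Figure D4:**
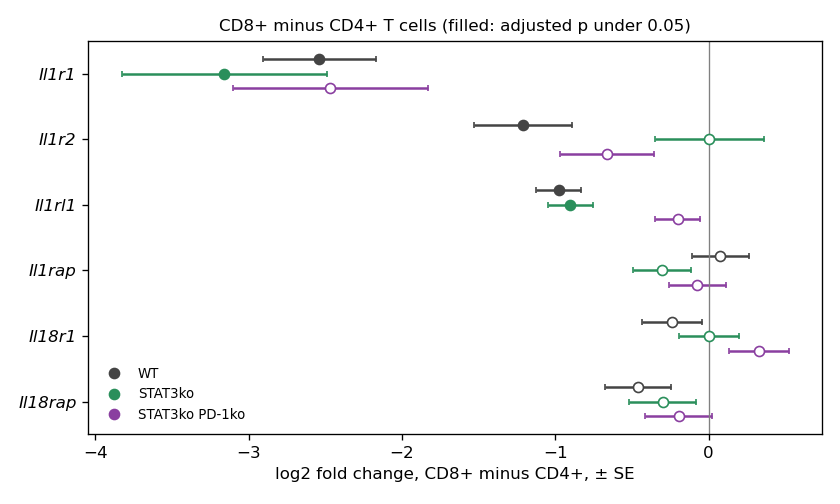
Log2 fold change of each receptor gene in CD8+ minus CD4+ T cells with its standard error, for the 3 donor genotypes. Filled points passed an adjusted p of 0.05 in edgeR without the replicate block; these are Il1r1 and Il1rl1 in WT and STAT3ko, and Il1r2 in WT.

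Other genes of the pathway were taken from lists of other receptors of the family, ligands, soluble inhibitors, ligand processing, receptor-proximal signalling, NF-kB and MAP kinases, and NF-kB feedback genes. Of 59 genes, 48 were tested in CD4+ and 47 in CD8+ T cells. Those too low to test were 6 of the 8 ligands in CD4+ and 7 in CD8+ libraries, and in both subsets 2 of 4 other receptors, 2 of 3 soluble inhibitors and 1 of 5 genes of ligand processing. In STAT3ko against WT, 0 passed in either subset in edgeR, with 8 and 2 at an unadjusted p under 0.05, beside 1259 and 1315 of all genes. DESeq2 called 3 in CD4+ and 1 in CD8+ T cells, beside 271 and 218 of all genes, and the replicate block gave 2 in CD4+ T cells (4.17%, beside 2.53% of all genes).

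In STAT3ko PD-1ko against WT, 5 of 48 changed in CD4+ T cells, 1 higher and 4 lower, and 7 of 47 in CD8+ T cells, all lower. These shares, 10.4% and 14.9%, stood beside 12.9% and 17.2% of all genes called in the same comparisons, and with the replicate number as a block in CD4+ T cells 33.3% (16 of 48) stood beside 26% of all genes. Irak3, which encodes a kinase-like inhibitor of IRAK signalling, fell by 1.17 ± 0.19 in CD4+ and 1.17 ± 0.15 in CD8+ T cells on the log2 scale (edgeR adjusted p = 0.0109 and 0.00562). Nfkbie, an inhibitor that holds NF-kB in the cytoplasm, fell by 1.02 ± 0.16 and 0.84 ± 0.21 (edgeR adjusted p = 0.0091 and 0.0359). Bcl3, a nuclear partner of NF-kB, fell by 1.57 ± 0.36 and 1.46 ± 0.20 (edgeR adjusted p = 0.0309 and 0.00696). In STAT3ko against WT its log2 fold changes were of like size, -1.66 ± 0.36 and -1.58 ± 0.20, and did not pass (edgeR adjusted p = 0.153 and 0.097), and that of Irak3 was -0.84 ± 0.19 in CD4+ T cells (edgeR adjusted p = 0.168). Sigirr, a receptor of the family that dampens signalling, fell in CD4+ T cells by 0.81 ± 0.18 (edgeR adjusted p = 0.0286). Il18, named after its values were seen because the count was small, rose from 0.381 and 0.455 to 1.35 and 1.56 CPM in CD4+ T cells (edgeR adjusted p = 0.0324). The STAT3ko CD4+ libraries, at 0.933 and 1.51 CPM of Il18, also lay above WT. In CD8+ T cells Gsdmd, Pycard, Peli1 and Irak4 also fell, by 0.53 to 0.73. The mean of Peli1 in CD8+ libraries was 220.2 CPM in WT and of like size in both deficient genotypes, 154.9 in STAT3ko and 149.5 in STAT3ko PD-1ko. The means of Gsdmd, Pycard and Irak4 in STAT3ko CD8+ libraries did not lie below WT. In CD4+ T cells 0 of the 48 passed without either STAT3ko PD-1ko CD4+ library, and 0 of the 47 in CD8+ T cells without STAT3ko PD-1ko CD8+ replicate 2.

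In STAT3ko PD-1ko against STAT3ko, 1 passed in CD4+ T cells (2.08% of those tested, beside 11.1% of all genes), namely Nfkbie, which fell by 0.86 ± 0.16 (edgeR adjusted p = 0.0195), and 9 passed with the block (18.8%, beside 26% of all genes). In CD8+ T cells 4 fell (8.51%, beside 16.8% of all genes), Irak3 by 0.93 ± 0.15, Irak4 by 0.75 ± 0.15, Gsdmd by 0.73 ± 0.16 and Pycard by 0.72 ± 0.16 (edgeR adjusted p = 0.0107 to 0.0255), and 0 did without STAT3ko PD-1ko CD8+ replicate 2. Nfkbie did not pass without either STAT3ko PD-1ko CD4+ library. No gene of the pathway or response lists passed the test of a different genotype effect in the 2 subsets (edgeR; 6, 11 and 6 of 77 at an unadjusted p under 0.05 in the 3 contrasts, and 0, 4 and 1 after adjustment with the replicate block, all of them response genes, namely Ccr8, Eomes, Il13 and Rora, and Eomes, named after their values were seen).

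Between subsets, 5 pathway genes in WT, 5 in STAT3ko and 4 in STAT3ko PD-1ko were lower in CD8+ T cells and none was higher. Their shares of the 48 tested were 10.4%, 10.4% and 8.33%, beside 10.5%, 9.62% and 4.14% of all genes. With the replicate block 23, 18 and 10 were called in either direction, or 47.9%, 37.5% and 20.8%, beside 24.3%, 24.9% and 14.4% of all genes. Il1rl2, Casp1 and Casp4 were lower in each genotype, Casp1 being the protease that matures IL-1β and IL-18. Their log2 fold changes in WT were -1.21 ± 0.12, -1.02 ± 0.23 and -1.40 ± 0.24 (edgeR adjusted p = 0.000142, 0.02 and 0.00517). Nfkb1 was lower in WT and STAT3ko, Irak3 in WT and STAT3ko PD-1ko, and Cyld in STAT3ko. Without STAT3ko PD-1ko CD4+ replicate 2, 1 of the 4 calls in that genotype was left, and 0 without any other of its libraries, while 2 of the 5 in WT were left without WT CD8+ replicate 1.

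The programs that these receptors feed were followed through 3 lists with 32 genes in all, and the tests took in 28 of them for CD4+ and 26 for CD8+ libraries. In STAT3ko PD-1ko against WT, 7 changed in CD4+ T cells (1 higher, 6 lower) and 8 in CD8+ T cells (3 higher, 5 lower), which was 25% and 30.8% of those tested, beside 12.9% and 17.2% of all genes. With the replicate block 14 of 28 were called in CD4+ T cells (50%, beside 26% of all genes). Of the type 17 and IL-1 list 4 fell in CD4+ T cells, among them Ahr by 1.59 ± 0.18 and Rora by 1.04 ± 0.23 (edgeR adjusted p = 0.00446 and 0.0278). In STAT3ko against WT their log2 fold changes in CD4+ T cells were -0.93 ± 0.18 and -0.65 ± 0.23, with no overlap of libraries, and did not pass (edgeR adjusted p = 0.119 and 0.359). Maf, of the type 2 list, fell by 1.81 ± 0.19 in CD4+ and 2.30 ± 0.19 in CD8+ T cells (edgeR adjusted p = 0.00395 and 0.00226), and passed in all fits that left out a library. Without replicate 2 of STAT3ko PD-1ko, 1 of the 32 was left in each subset. Ccr8, a chemokine receptor of type 2 and regulatory T cells, rose in CD8+ T cells by 1.94 ± 0.34 (edgeR adjusted p = 0.0128).

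Of the type 1 list, Il12rb2, which encodes a chain of the IL-12 receptor, rose in STAT3ko PD-1ko against WT in CD8+ T cells by 0.45 ± 0.11 and Gzmb, a cytotoxic granule protease, fell by 1.25 ± 0.16 (edgeR adjusted p = 0.0342 and 0.00529). The mean of Gzmb in CD8+ libraries was 4709 CPM in WT and of like size in both deficient genotypes, 2031 in STAT3ko and 1962 in STAT3ko PD-1ko. Eomes, a transcription factor of cytotoxic T cells, rose in CD4+ T cells by 1.40 ± 0.26 (edgeR adjusted p = 0.0158). Between the deficient genotypes, 2 of the 28 tested changed in CD4+ (Eomes higher, Maf lower) and 5 of the 26 in CD8+ T cells (4 higher, 1 lower). These shares were 7.14% and 19.2%, beside 11.1% and 16.8% of all genes. With the replicate block 9 of 28 were called in CD4+ T cells (32.1%, beside 26% of all genes), and without the block 0 were left in either subset without replicate 2 of STAT3ko PD-1ko. Between subsets, 7 of 8 type 2 genes tested were lower in CD8+ T cells in WT, 5 of 8 in STAT3ko and 3 of 8 in STAT3ko PD-1ko, and none was higher, where 5.59%, 4.82% and 2.5% of all genes were lower. Leaving out 1 library left 5 to 7 of them in WT, 3 (without STAT3ko CD8+ replicate 2) to 4 in STAT3ko and 2 in STAT3ko PD-1ko, whichever of its libraries was left out, and the replicate block gave 8, 6 and 5. Of all 3 lists, 14, 12 and 8 of 29 genes were called between subsets (48.3%, 41.4% and 27.6%, beside 10.5%, 9.62% and 4.14% of all genes). The last became 14 with the block (48.3%, beside 14.4% of all genes) and 4 without any 1 of its libraries, and the 12 in STAT3ko became 6 without STAT3ko CD8+ replicate 2. In WT, Ccr4 was lower by 3.18 ± 0.26 and Ccr8 by 2.30 ± 0.39 on the log2 scale (edgeR adjusted p = 5.8e-05 and 0.00426).

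Across the 12 libraries, which share genotypes and subsets, the levels of the 2 IL-18 receptor chains ran together (Pearson's r of log2 CPM 0.843), and Il1r2 ran against Il18r1 (-0.736). Among 10090 genes, those most like Il1r2 were Cpd (0.961), Plxnd1 (0.945) and Rcn2 (0.935). Those most like Il18rap were Ezh1 (0.975), Gmip (0.975) and Pgs1 (0.973), and those most like Il18r1 were Gripap1 (0.940), Ltb (0.939) and Rcn1 (0.934). Tmcc1 (0.951), Plekhm3 (0.936) and Ptpn7 (0.935) were most like Il1rl1, and Cd53 (0.946), Lamp2 (0.943) and Txndc9 (0.939) most like Il1rap. Il1r1 was too low to be compared. These are descriptions of 12 libraries, and of the 3 genes named for a member only 2 for Il1r2 and 1 for Il18rap were also among the top 3 by Spearman's rho.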

How the data were processed

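RNA-Seq reads were aligned to mm10 (STAR) and counted on RefSeq genes (HTSeq-count) by the authors, who deposited raw counts and RPKM values, the latter normalized by exon length and library size. Whether counting used strand is not given in the sources used here. The labels' growth protocol describes a mesenchymal cell line, and their library kit differs from that of the study's methods; neither was used. The tools were edgeR 4.0.16, DESeq2 1.42.0 and limma 3.58.1, run under R 4.3.3. Genes passed filterByExpr (minimum count 10, minimum total 15), were scaled by TMM and tested in edgeR by quasi-likelihood, with p-values adjusted by Benjamini and Hochberg's method over all genes tested and a threshold of 0.05. Each subset's 6 libraries made 1 fit (3 residual degrees of freedom; 11959 genes in CD4+, 12002 in CD8+), and all 12 for the subset comparison (12334 genes). For single values, 2-sided exact permutation of 2 libraries against 2 has a smallest p of 0.333, so none is given. Replicates are pools of recipients, so p-values measure the spread between pools, which exceeded counting noise in all groups.

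The members and lists were chosen with earlier results of these data known. Named genes were the members, Stat3, Pdcd1, up to 3 called genes of largest change whose mean log2 CPM reached 1, for each list and comparison, the 3 genes most correlated with each member, and the chromosomal neighbours. Of 182 list entries, 180 were in the table. The counts of the response lists in STAT3ko against WT are not reported here. Alternatives were DESeq2, all genes with at least 1 count, a floor of 10 counts in each library, a fit of the 4 libraries of a comparison alone, the replicate block, limma on log2(RPKM + 1), and leaving out each library. Deviations of same-numbered CD4+ libraries correlated between genotypes (0.199 to 0.63), as did the CD4+ and CD8+ libraries of a genotype (0.583 to 0.646). These were taken as paired, although the main tests used no block. The study's supplement takes both subsets from the same recipients' livers, but ties no replicate number to them. In CD8+ T cells the correlations between genotypes were 0.06 to 0.651 and, since 1 of the 3 was under 0.1, the number was not taken as a pairing. The library numbers in the sample titles run consecutively within a replicate number, across genotypes and subsets. That order was not used for this choice. Promoters came from RefSeq (GRCm38.p6, the build named mm10 in the files) and exons from GENCODE; all 6 members matched. The scripts were tested on simulated data. Python 3.11.15 and matplotlib 3.10.9 drew the figures.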

Additional observations from a re-analysis of the deposited data

How the results depend on the processing

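Causes of the changes below were not tested unless named. Main counts in edgeR are given first. For the members in STAT3ko against WT, 2 in CD4+ T cells became 0 when only the 4 libraries compared were fitted and 1 with limma, and 1 in CD8+ became 2 by DESeq2, 2 with all genes of at least 1 count, and 0 with 10 counts in every library (which removes Il1r1), with 4 libraries and with limma. With 10 counts in every library, 3 in STAT3ko PD-1ko against WT and 2 against STAT3ko in CD8+ T cells became 1 and 1 (limma also 1 against STAT3ko). Between subsets, 2 in STAT3ko became 1 with that floor and 1 with limma, and 0 in STAT3ko PD-1ko became 1 by DESeq2, 1 with all genes of at least 1 count and 2 with the replicate block. For the pathway lists, 0 in STAT3ko against WT became 3 (DESeq2), 1 (at least 1 count) and 2 (block) in CD4+ and 1 (DESeq2) and 1 (at least 1 count) in CD8+ T cells. In CD4+ T cells, 5 in STAT3ko PD-1ko against WT became 12 (DESeq2), 8 (at least 1 count), 9 (4 libraries) and 16 (block), and 1 against STAT3ko became 4 (DESeq2), 2 (at least 1 count) and 9 (block). Between subsets, 5 in WT, 5 in STAT3ko and 4 in STAT3ko PD-1ko became 23, 18 and 10 with the block, and the last 2 with 4 libraries. The block gave 4 and 1 list genes with different effects in the subsets, for STAT3ko PD-1ko against WT and STAT3ko. In CD8+ T cells, where the numbers were not taken as paired, the block gave 1, 3 and 3 members and 0, 9 and 6 pathway genes. The third count of members then took in Il18rap, and like the other counts of members it is a description. Leaving out 1 library gave 1 to 2, 1 to 3 and 0 to 3 members in CD4+ T cells (STAT3ko and STAT3ko PD-1ko against WT, then against each other), 0 to 1, 0 to 4 and 0 to 3 in CD8+ T cells, and 2 to 3, 1 to 2 and 0 to 0 between subsets in WT, STAT3ko and STAT3ko PD-1ko; pathway counts were 0 to 1, 0 to 3 and 0 to 4, then 0 to 0, 0 to 4 and 0 to 5, then 2 to 5, 3 to 4 and 0 to 1. Among the members, signs turned for these differences, none past the threshold. In STAT3ko against WT, leaving out a library gave -0.171 to 0.306 for Il1rap and -0.093 to 0.221 for Il18r1 in CD4+ and -0.324 to 0.034 for Il1rl1 and -0.399 to 0.154 for Il18rap in CD8+ T cells. Il1rl1 in STAT3ko PD-1ko CD8+ T cells was -0.157 to 0.038 against WT and -0.083 to 0.274 against STAT3ko, and Il1r1 against STAT3ko in CD4+ T cells -0.547 to 0.285. Between subsets, Il18r1 in STAT3ko was 0.013 with 4 libraries and 0.018 with limma, and -0.151 to 0.129 without a library. Without a library, Il18r1 in WT was -0.545 to 0.005, Il1rap in WT -0.115 to 0.293, Il1r2 in STAT3ko -0.426 to 0.596 and Il1rap in STAT3ko PD-1ko -0.152 to 0.012. The 2 to 4 counts of Il1r1 in CD8+ libraries of deficient donors limit what depth can show there.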
